A study of Mus musculus with 2 samples.

Results

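The genes described here encode histones, high-mobility-group proteins and the enzymes, readers and remodelling machines that act on chromatin. They were chosen by name, as the single-symbol rows of the deposited table whose symbol belongs to a named set of histone and chromatin gene families, leaving out the Y chromosome and requiring a value above 0 in both libraries. The rule found 40 rows, for 39 symbols, among 2381 rows in all. Of 41 rows that matched by name, only Kdm5d was left out, because it lies on the Y chromosome. The rule did not use the direction or size of any difference, but every row of the table had already passed the authors' own significance threshold.

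RNA was sequenced from the cortex of mouse embryos of a B6/129 background at E14.5 (counted in days of gestation), with 1 library per genotype. The Trrap-deleted library came from embryos with both Trrap alleles floxed and the Nestin-Cre transgene (TrrapF/F NestinCre+), which drives recombination mainly in neural precursors and their descendants. The library entered as wild type, called the control here, came from embryos with 1 floxed allele and the same transgene (TrrapF/+ NestinCre+), so both genotypes carried Cre and the control was heterozygous for the deletion. The labels do not state how many embryos went into a library, no value below has a replicate error, and the differences are between these libraries. Sex-linked transcripts also differed between them, as did markers of dividing, microglial and meningeal cells, with the values given after the results.

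Trrap is the large scaffold subunit shared by several histone acetyltransferase complexes, which transfer acetyl groups to histone tails and are recruited to genes by transcription factors. Acetylation loosens the contact of histones with DNA, deacetylases reverse it, Polycomb complexes write a repressive methyl mark, and ATP-dependent remodellers move nucleosomes. In the developing cortex, dividing progenitors and neurons are known to use different histone variants, Polycomb levels and remodeller subunits. Values are FPKM, fragment counts corrected for transcript length and library depth, and ratios are Trrap-deleted over control. A gene without a row is called not listed: it may have been unexpressed, untested or below the authors' threshold.

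Histone and chromatin genes were mostly lower in the Trrap-deleted cortex. Of the 40 rows, 29 were lower and 11 were higher, so 72.5% were lower, against 41.7% of all 2314 usable rows (1 symbol, off the Y chromosome, both values above 0), and 27.5% were higher, against 58.3%. The median log2 ratio was -0.61 (1.53-fold lower) over the 40 rows and 0.55 (1.47-fold higher) over all usable rows. At least 2-fold differences were fewer: 6 rows were at least 2-fold lower (13.4% of all usable rows were) and 4 were at least 2-fold higher (25.5% of all usable rows were). The ratios ran from -1.32 for Cbx2 to 1.495 for Hist1h1c on the log2 scale. Rescaling to a median ratio of 0 over all usable rows gave 31 rows lower and 9 higher. Atxn7 and Hdac3 changed sign. On that scale 27 rows were at least 2-fold lower and 0 at least 2-fold higher. By construction, all usable rows then divide evenly around 0, and many of them also become at least 2-fold lower. Hmgb2, just short of that limit at a rescaled log2 ratio of -0.9992, ranked 874th of the 2314 usable rows from the largest fall. Several rows are near-identical copies of 1 gene, described below; with the copies of H3f3a, Hmgb1 and Hist1h2ao and the pair of Hdac11 rows counted once, a choice made after seeing the data, 21 of 31 were lower (67.7%). In the same library all 12 listed mitosis genes were lower and all 9 listed microglial and 6 listed meningeal markers were higher, and their part in these results was not tested.

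**Figure D1:**
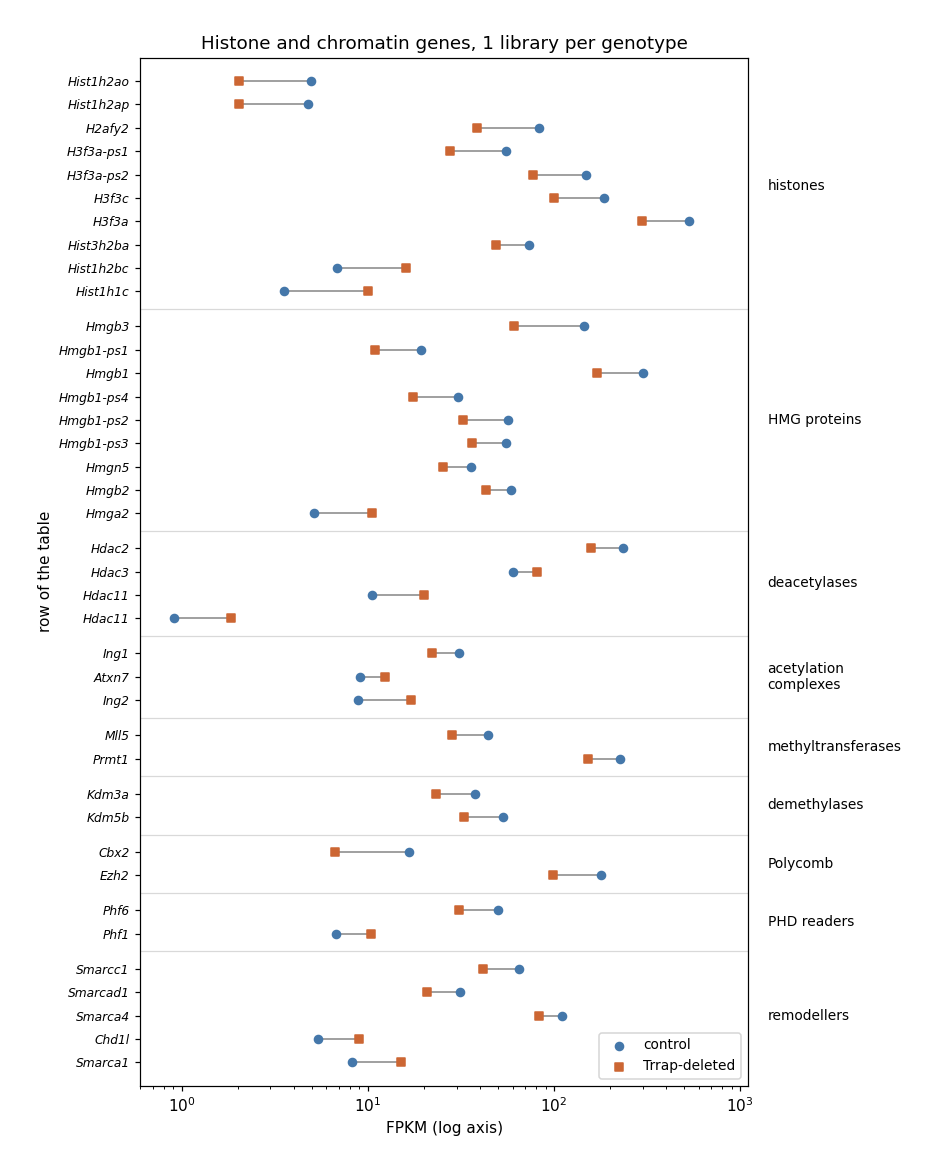
FPKM of 39 of the 40 rows in the control (circles) and Trrap-deleted (squares) library, on a log axis, grouped by role. Each line joins the values of 1 row; in 28 of the plotted rows the square lies to the left of the circle.

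Abundance divided the genes. Of 25 rows with a mean of at least 20 FPKM over both libraries, 24 were lower, or 96.0%, against 57.3% of all usable rows at that level. Hdac3 was the exception, and it became lower under the rescaling to a median of 0. Of 15 rows with a mean under 20 FPKM, 10 were higher and 5 lower (33.3% lower), a share near the 30.8% of all usable rows at that level (69.2% of them were higher), so the direction of the weaker genes was close to that of the table at that level. The limit of 20 FPKM was chosen after the values were seen. With a limit of 50 FPKM, 13 of 14 rows were lower against 72.1% of all usable rows, and with 10 FPKM, 27 of 33 against 52.7%. Without X-linked rows and processed pseudogenes, 15 of the 16 rows with a mean of at least 20 FPKM were lower, and 9 of the 13 weaker ones were higher.

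**Figure D2:**
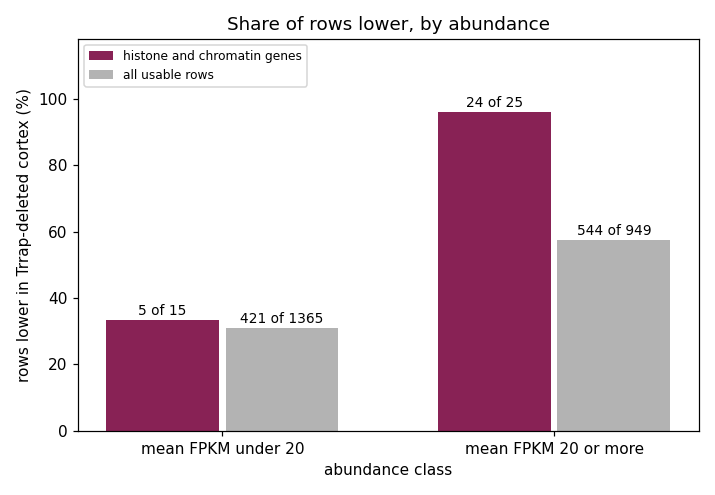
Share of rows lower in the Trrap-deleted library, in percent, for histone and chromatin genes and for all usable rows, in each of a pair of abundance classes. Above each bar stands the number of rows lower of the number in the class; 24 of 25 abundant histone and chromatin rows were lower against 544 of 949 of all usable rows.

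**Figure D3:**
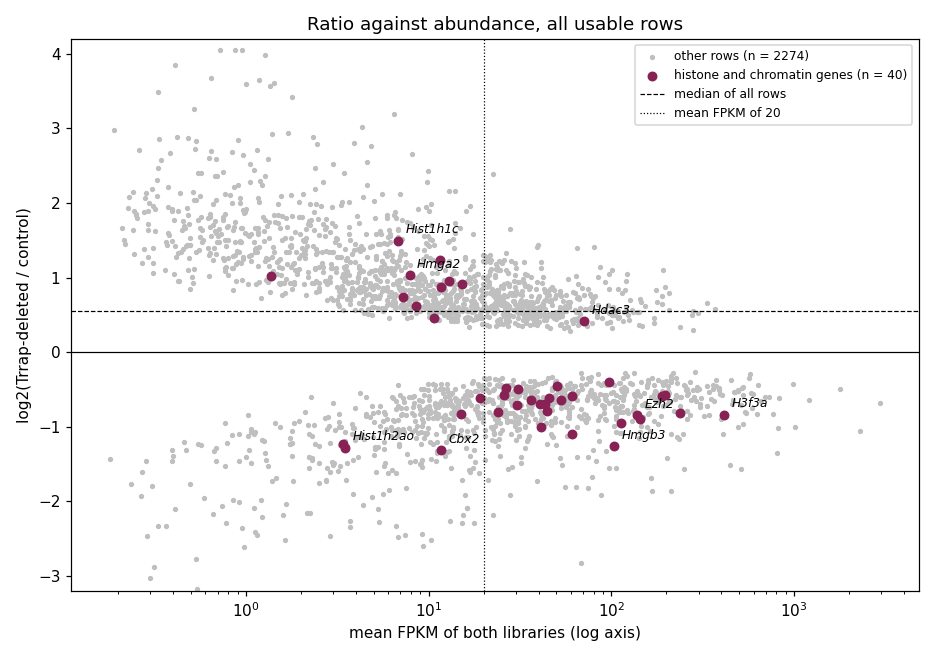
Log2 ratio of Trrap-deleted over control against mean FPKM (log axis) for all usable rows, with the 40 histone and chromatin rows as large points. The dashed line is the median of all usable rows (0.55) and the dotted line the limit of 20 FPKM; 11 rows lie outside the plotted range. The band around 0 is empty because rows with small differences did not pass the authors' test.

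Leaving aside the near-copies of H3f3a, the listed replacement histone genes were H3f3a and H2afy2, both lower. The more abundant was H3f3a, which encodes the H3 variant that is put into chromatin outside DNA replication. H3f3a (chromosome 1, 182730963 to 182746990, mm9) had 533 FPKM in control and 298 in Trrap-deleted cortex, a log2 ratio of -0.84 (1.79-fold lower), with a q-value of 3.9e-08 in the authors' deposited table. It ranked 39th of the 2314 usable rows by mean FPKM. The row Gm17275 has the same boundaries and is annotated on the opposite strand, and it went from 25.9 to 13.6 FPKM. H2afy2, a macroH2A variant with a large extra domain that marks silent chromatin, went from 83.2 to 38.8 FPKM (2.15-fold lower, chromosome 10, 61178011 to 61247600). Its row of 69590 bases is longer than the 45483 bases of the annotated gene. Aifm2 overlaps that gene on the opposite strand, so the H2afy2 value is uncertain. H2afz, H3f3b and H2afy, the genes of other replacement variants, were not listed, and H2afx shares a row with Dpagt1 (86.6 to 57.3 FPKM) that was not counted.

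The rows H3f3c, H3f3a-ps1 and H3f3a-ps2 carry near-copies of H3f3a and moved with it. H3f3c went from 185 to 99.9 FPKM, H3f3a-ps2 from 148 to 77.0 and H3f3a-ps1 from 55.2 to 27.6, between 1.85- and 2.00-fold lower. All of them are single-exon copies, which GENCODE annotates as processed pseudogenes, although RefSeq annotates H3f3c as protein-coding. The 411 coding bases of H3f3a were 99.0% identical to H3f3c, 98.8% to H3f3a-ps2 and 98.3% to H3f3a-ps1, and the longest run without a difference was 267, 155 and 110 bases. The stretch with the most differences, coding bases 85 to 144 counted from the start codon of H3f3a, is shown to let the copies be compared; capitals mark bases that differ from H3f3a, and the sequences are those of the GENCODE M21 transcripts (GRCm38).
H3f3a: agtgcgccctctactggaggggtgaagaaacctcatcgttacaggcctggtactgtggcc
H3f3c: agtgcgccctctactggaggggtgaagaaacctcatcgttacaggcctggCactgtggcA
H3f3a-ps1: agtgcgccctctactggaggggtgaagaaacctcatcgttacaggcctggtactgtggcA
H3f3a-ps2: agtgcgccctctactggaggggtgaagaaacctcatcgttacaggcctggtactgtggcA
Reads that cover none of the differing bases fit more than 1 copy, so the 4 values are uncertain as separate genes, although each row is counted above.

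The listed genes of the main histone clusters did not share a direction. Their messages normally lack a poly(A) tail and are made while DNA replicates, but some of them also give polyadenylated messages in cells that have stopped dividing. Hist1h1c, a linker histone gene (chromosome 13, 23830676 to 23832235), went from 3.57 to 10.1 FPKM, a log2 ratio of 1.495 (2.82-fold higher), with a q-value of 6.05e-08 in the authors' deposited table. Hist1h2bc, a histone H2B gene (chromosome 13, 23776068 to 23784504), went from 6.85 to 16.1 FPKM (2.36-fold higher). These neighbours lie 46171 bases apart and were the only histone rows that were higher.

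The histone H2A genes Hist1h2ao and Hist1h2ap, in another part of the same chromosome, were lower. Hist1h2ao (chromosome 13, 21902236 to 21902754) went from 4.95 to 2.03 FPKM (2.43-fold lower) and Hist1h2ap (21924926 to 21925444) from 4.79 to 2.03 FPKM (2.36-fold lower). They lie 22171 bases apart, and 1850623 bases separate Hist1h2ap from Hist1h2bc. Both have the same value in the Trrap-deleted library, and their 393 coding bases were identical. The first 60 are shown as an example of a stretch whose reads fit either gene.
Hist1h2ao: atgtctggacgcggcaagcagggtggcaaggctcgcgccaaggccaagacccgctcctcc
Hist1h2ap: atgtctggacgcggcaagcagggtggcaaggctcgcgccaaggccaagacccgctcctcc
Their values are therefore not independent, although each row is counted above. Hist3h2ba, a histone H2B gene outside that cluster (chromosome 11, 58762413 to 58763032), went from 73.3 to 48.9 FPKM, 1.5-fold lower. Of 82 annotated protein-coding symbols of the histone families, 7 were listed.

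High-mobility-group genes were lower in 9 of 10 rows (90%), against 41.7% of all usable rows. The 10 rows hold 6 protein-coding genes, of which only Hmga2 was higher, and pseudogene copies of Hmgb1, described below. The median of their mean FPKM was 37.6, and 57.3% of all usable rows with a mean of at least 20 FPKM were lower. High-mobility-group proteins are small and abundant and bend DNA or loosen nucleosomes. Hmgb3, known from stem and progenitor cells, changed most: it went from 146 to 60.7 FPKM, a log2 ratio of -1.26 (2.40-fold lower, X chromosome, 68809093 to 68813851), and the authors' deposited table lists its q-value as 0. Hmgb1, the most abundant of the family, went from 301 to 171 FPKM, a log2 ratio of -0.82 (1.76-fold lower, chromosome 5, 149858278 to 149865089). Hmgb2 went from 58.5 to 42.9 FPKM and Hmgn5, a nucleosome-binding protein gene on the X chromosome, from 35.9 to 25.5. The exception was Hmga2, a gene of fetal tissue and young neural stem cells, which went from 5.17 to 10.6 FPKM, a log2 ratio of 1.03 (2.04-fold higher, chromosome 10, 119798325 to 119913835), with a q-value of 7.65e-05 in the authors' deposited table. Hmgn1, Hmgn2 and Hmgn3 were not listed.

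A further 4 rows of this family are processed pseudogenes of Hmgb1. Hmgb1-ps2 went from 56.4 to 32.6 FPKM, Hmgb1-ps3 from 55.1 to 36.0, Hmgb1-ps4 from 30.3 to 17.4 and Hmgb1-ps1 from 19.3 to 10.9. Their log2 ratios, from -0.83 to -0.61, lay around that of Hmgb1. Identity with the coding sequence of Hmgb1 ranged from 98.4% to 99.5%, and runs without a difference reached 436 bases, whereas Hmgb2 was 78.5% and Hmgb3 75.3% identical, with no identical run above 27 bases. The first 60 coding bases, in which every listed pseudogene differs from Hmgb1 at the same single base (in capitals), show how few reads can tell them apart.
Hmgb1: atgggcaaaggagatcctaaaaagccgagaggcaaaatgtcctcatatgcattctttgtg
Hmgb1-ps1: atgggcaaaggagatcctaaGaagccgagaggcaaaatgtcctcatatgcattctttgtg
Hmgb1-ps2: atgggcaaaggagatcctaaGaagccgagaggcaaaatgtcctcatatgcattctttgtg
Hmgb1-ps3: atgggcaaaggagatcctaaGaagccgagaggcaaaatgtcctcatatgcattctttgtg
Hmgb1-ps4: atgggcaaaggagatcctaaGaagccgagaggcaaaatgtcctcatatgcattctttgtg
The pseudogene values are therefore uncertain and may hold reads of Hmgb1. With all 7 processed pseudogenes left out, 22 of 33 rows were lower (66.7%) and the median log2 ratio was -0.58.

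The listed deacetylase genes did not share a direction. Hdac2, a catalytic subunit of the Sin3, NuRD and CoREST corepressors, went from 234 to 157 FPKM, a log2 ratio of -0.57 (1.49-fold lower, chromosome 10, 36694350 to 36721700), with a q-value of 0.00273 in the authors' deposited table. Hdac3, the enzyme of the NCoR and SMRT corepressors, went from 60.5 to 80.5 FPKM, 1.33-fold higher as deposited and a log2 ratio of -0.14 after rescaling to a median of 0. Hdac11 (chromosome 6, 91106659 to 91124689), a deacetylase enriched in brain, has a pair of rows at the same locus, which went from 10.54 to 19.9 FPKM (1.89-fold higher) and from 0.908 to 1.85 FPKM (2.03-fold higher). No sirtuin and no other Hdac gene was listed, so 3 of 18 annotated symbols were.

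Of 17 annotated symbols of the Kat, Atxn7 and Ing families, 3 were listed, none of them a Kat gene. Trrap itself was not listed either, so the deleted gene gives no check of the labels. Atxn7, which anchors the deubiquitinase module to the Trrap-containing SAGA complex, went from 9.03 to 12.4 FPKM, a log2 ratio of 0.46 as deposited and -0.095 after rescaling to a median of 0. Of the ING genes, which encode methyl-lysine readers in deacetylase and acetyltransferase complexes, Ing2 went from 8.82 to 17.0 FPKM (1.93-fold higher) and Ing1 from 30.9 to 22.04 (1.40-fold lower). The q-values of Ing1 (0.0479), Ing2 (0.0389) and Atxn7 (0.0383) in the authors' deposited table were the 3 closest to the 0.05 threshold among the 40 rows. In a wider list of 40 symbols for subunits of complexes containing Trrap, 2 were listed: Atxn7 and the X-linked Morf4l2, a NuA4 subunit gene, which went from 204 to 142 FPKM (1.43-fold lower).

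Both listed methyltransferase genes and both listed demethylase genes were lower. Prmt1, the main arginine methyltransferase of histone H4, went from 227 to 151 FPKM (1.5-fold lower, chromosome 7, 52231283 to 52241862). Mll5, now named Kmt2e, went from 44.3 to 28.3 FPKM (1.57-fold lower), in a row of 242008 bases that is longer than the 69795 bases of the annotated gene and reaches over Srpk2, so its value is uncertain. Kdm5b, which removes the methyl mark of active promoters, went from 53.4 to 32.9 FPKM (1.62-fold lower, chromosome 1, 136456701 to 136531906). Kdm3a, which removes a repressive methyl mark and is induced by hypoxia, went from 37.8 to 23.2 FPKM (1.63-fold lower, chromosome 6, 71538968 to 71583420). The remaining 28 of 30 methyltransferase-family and 15 of 17 demethylase symbols matched by these family names were not listed, among them the X-linked Kdm5c and Kdm6a.

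The listed genes of the Ezh and Cbx families, Ezh2 and Cbx2, were lower, and Cbx2 had the largest decrease of all 40 rows. Cbx2, a chromobox subunit that compacts chromatin in Polycomb repressive complex 1, went from 16.6 to 6.68 FPKM, a log2 ratio of -1.32 (2.49-fold lower, chromosome 11, 118884276 to 118892584), with a q-value of 7.45e-11 in the authors' deposited table. Ezh2, the methyltransferase of Polycomb repressive complex 2, went from 179 to 99.2 FPKM, a log2 ratio of -0.85 (1.80-fold lower, chromosome 6, 47479975 to 47545340), with a q-value of 9.24e-05 in the authors' deposited table. Its partners Eed and Suz12, its relative Ezh1 and the other Cbx genes were not listed. Among Polycomb genes outside these families, Bmi1 went from 86.1 to 43.1 FPKM (2.00-fold lower) and Yaf2 from 17.7 to 28.8 FPKM (1.63-fold higher); Phc3, named after its value was seen, went from 8.74 to 13.4 FPKM.

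The PHD-finger genes went in opposite directions. Phf6, an X-linked gene of intellectual disability whose product binds NuRD, went from 50.2 to 31.0 FPKM (1.62-fold lower, 50265443 to 50310121). Phf1, an accessory subunit of Polycomb repressive complex 2, went from 6.76 to 10.4 FPKM (1.54-fold higher, chromosome 17, 27070037 to 27076793), in a row that is longer than the annotated gene and overlaps Cuta on the opposite strand. No Brd or Baz gene was listed.

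Smarcc1 and Smarca4, the only listed BAF subunits among the Smarc and Arid genes, were lower. BAF is the SWI/SNF-type remodeller whose makeup differs between neural progenitors and neurons. Smarcc1, which encodes a scaffold subunit prominent in progenitors, went from 64.7 to 41.6 FPKM, a log2 ratio of -0.64 (1.56-fold lower, chromosome 9, 110034516 to 110143351). Smarca4, the ATPase Brg1, went from 110.3 to 83.3 FPKM, a log2 ratio of -0.40 (1.32-fold lower, chromosome 9, 21420577 to 21513020). Smarcad1, a remodeller that helps to restore silent chromatin after replication, went from 31.2 to 20.8 FPKM (1.5-fold lower). The higher members belong to other remodeller types. Smarca1, the ISWI ATPase Snf2l that is prominent in neurons, went from 8.22 to 15.04 FPKM (1.83-fold higher, X chromosome, 45162545 to 45246151), and Chd1l, a remodeller activated at DNA breaks, went from 5.42 to 9.02 FPKM (1.66-fold higher, chromosome 3, 97364544 to 97414131). Smarcc2, Smarca2, Smarca5, Smarcb1, Smarcd1, Smarcd2, Smarcd3, Smarce1 and every Chd and Arid gene other than Chd1l were not listed.

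None of the 16 annotated symbols of the DNA methylation group was listed. They hold the Dnmt methyltransferases, the Tet dioxygenases that start the removal of the mark, and the Mbd readers. Over all families, 32 of 270 annotated protein-coding symbols (11.9%) were listed. Matched by exact symbol only, without the renamed genes, these were 30 (11.1%), against 1876 of all 21740 protein-coding symbols off the Y chromosome (8.63%). That share is a lower bound for the table, because 2303 symbols have usable rows and those without an exact protein-coding match are not counted.

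Histone chaperones, which carry histones to and from DNA, were followed in a separate list of 26 symbols, of which 11 were listed, 8 lower and 3 higher, with a median log2 ratio of -0.50 (41.7% of all usable rows were lower). Of the 8 with a mean of at least 20 FPKM, 7 were lower, against 57.3% of all usable rows at that level. The most abundant, Ptma (prothymosin alpha, which binds linker histones), went from 1353 to 675 FPKM (2.00-fold lower). Nap1l3, an X-linked neuronal member of the nucleosome assembly family, went from 2.79 to 10.3 FPKM (3.67-fold higher), and Nap1l5, an imprinted member, from 5.13 to 14.2 FPKM (2.76-fold higher). Chosen after their values were seen, the nucleolar chaperone gene Npm1 went from 566 to 361 FPKM, Set from 385 to 230 and Nasp, which carries H3 and H4, from 178 to 122. Of 81 further chromatin symbols outside the named families 7 were listed, 4 lower and 3 higher, with Rcor2, a CoREST subunit gene, at 142 and 81.2 FPKM. Its partner Rest and the histone-binding gene Rbbp4, named after their values were seen, went from 4.98 to 3.42 and from 179 to 138 FPKM.

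**Figure D4:**
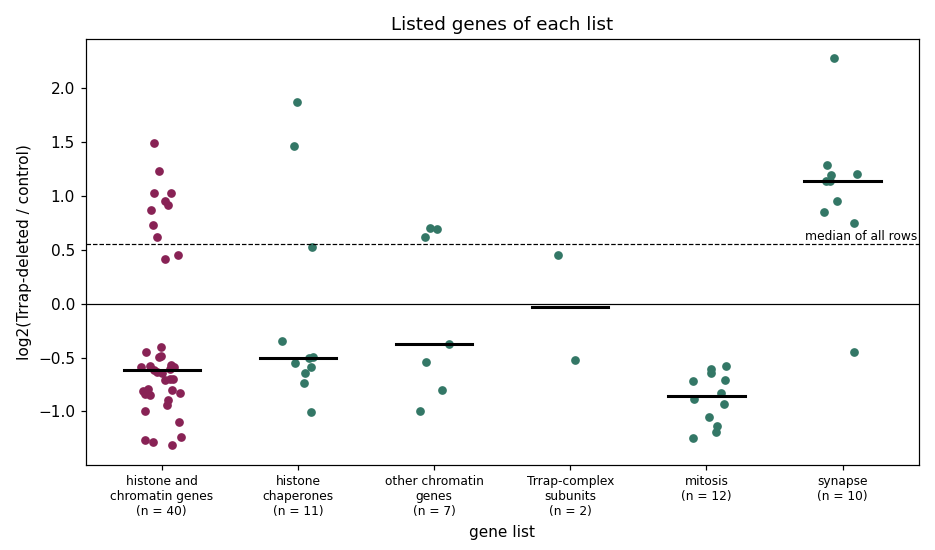
Log2 ratios of the listed genes of each list, 1 point per gene or row, with the median of the list as a bar. The dashed line is the median of all usable rows (0.55); the medians of histone and chromatin genes (-0.61), histone chaperones (-0.50) and mitosis genes (-0.85) lie below 0 and that of synapse genes (1.14) above it.

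Promoters of the listed genes were rich in G and C in both directions. RefSeq promoter sequences (GRCm38.p6) matched 28 of 39 symbols; Cbx2, Hdac3, Hist1h2bc, Mll5, Phf6 and the 6 rows named as pseudogenes had no entry. In the 250 bases before the start, taking the first entry of each gene, the median G and C content was 59.2% for 20 lower genes, 60.4% for 8 higher genes and 52.0% for all 27025 promoters. The letters CCAAT, the core of the box bound by NF-Y, were searched on both strands and were present in 11 of 20 lower genes (55.0%), 4 of 8 higher genes (50%) and 34.5% of all promoters. At least 3 copies were present in 7 of the 28 genes (25.0%), which were Ezh2, Hist1h2ap, Hist3h2ba, Hmgb1, Hmgb2, Hmgb3 and Prmt1, against 2.98% of all promoters; all 7 were lower and none of the 8 higher genes had so many. The minimum of 3 copies was set after the counts were seen. The 120 bases before the start of Hist1h2ao end with the run that opens those of Hist1h2ap. These genes are therefore not independent here, although both are counted among the lower genes. All comparisons are with all promoters, and the promoters of usable rows were not counted apart. The other motifs were GGGCGG (11 of 20 lower, 6 of 8 higher, 32.9% of all), TTTGAA (4 of 20, 0 of 8, 16.3%), TATAAA (1 of 20, 0 of 8, 13.0%) and CACGTG (1 of 20, 0 of 8, 6.05%). TGACGTCA (1.62% of all) and the pair TTTGGCGC or TTTCCCGC (1.35% of all) were in none of the 28; each motif was counted by itself, so motifs that overlap count for both. A match is a description of the sequence and not a bound site.

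The 120 bases just before the start are shown for Hmgb1, Hmgb3 and Ezh2, abundant lower genes with 3 copies of CCAAT each in this stretch, and for Hist1h1c, a higher gene with 1; capitals mark any of the searched motifs on either strand, CCAAT reading ATTGG on the other.
Hmgb1, chr5:149053058-149053177, minus strand: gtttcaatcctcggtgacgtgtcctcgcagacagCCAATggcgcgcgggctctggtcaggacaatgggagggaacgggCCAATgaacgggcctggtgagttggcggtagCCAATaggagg
Hmgb3, chrX:71555797-71555916, plus strand: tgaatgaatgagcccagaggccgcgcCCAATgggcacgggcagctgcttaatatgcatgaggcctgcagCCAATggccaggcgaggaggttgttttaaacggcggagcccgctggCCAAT
Ezh2, chr6:47595031-47595150, minus strand: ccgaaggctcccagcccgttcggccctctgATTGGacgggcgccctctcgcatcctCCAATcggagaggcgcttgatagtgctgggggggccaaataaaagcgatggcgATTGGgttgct
Hist1h1c, chr13:23738687-23738806, plus strand: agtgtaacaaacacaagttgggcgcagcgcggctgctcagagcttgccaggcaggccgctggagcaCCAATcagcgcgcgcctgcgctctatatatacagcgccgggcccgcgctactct
The 3 copies in Hmgb1 all read in the direction of the gene, as do those in Hmgb3, while Ezh2 holds both orientations. Other lower genes had fewer copies in their 120 bases. H3f3a, the most abundant, had 1, like Hist1h1c, and H2afy2 had 0, so the stretches shown do not stand for all lower genes.

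The libraries differed in ways that cannot be told apart from genotype. The Y-linked genes Kdm5d (0.00414 to 3.99 FPKM), Ddx3y and Eif2s3y were higher in the Trrap-deleted library and Xist was lower (313 to 142 FPKM). Of the 6 X-linked rows described here 5 were lower (83.3%), as were 59 of 104 usable X-linked rows (56.7%); off the X chromosome 24 of 34 rows were lower (70.6%) against 41.0%, and the median log2 ratio there was -0.60. Of 23 mitosis genes 12 were listed, each of them lower (median log2 ratio -0.85, summed FPKM 559 and 306), led by Cdca3, Pttg1 and Ube2c, while 9 of 10 listed synapse genes of 20 were higher. These are bulk samples, in which fewer cells of a type and less RNA per cell cannot be told apart. Of 15 markers of the cortical excitatory lineage 4 were listed, Neurod6 (312 to 259.9 FPKM), Neurog2 (89.6 to 112), Fezf2 and Bcl11b, all present in both libraries. All 9 listed microglial markers of 13 were higher (summed FPKM 10.98 and 29.0), as were all 6 listed meningeal markers of 11 (2.77 and 15.7), both listed endothelial and pericyte markers of 11 (2.07 and 4.24), Hbb-y of 9 red cell markers (96.8 and 157) and Ttr of 6 choroid plexus markers (0.104 and 3.31). Of 14 markers of the ventral telencephalon, Lhx6 (7.06 to 1.71 FPKM), Dlx2 (1.95 to 0.358 FPKM) and Dlx5 (1.68 to 0.276 FPKM) were lower. No listed marker was at 0 in either library. The part of these differences in the results above was not tested.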

How the data were processed

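RNA of embryonic mouse cortex was sequenced in 1 control and 1 Trrap-deleted library. Per the labels' protocols, 2.5 µg of total RNA went into each TruSeq library. Alignment software (TopHat2, version not given in the sources used here) and the genome build (mm9) come from the submitters' processing notes. Neither the program that counted and tested nor the number of reads per library is given there, so the precision set by depth is unknown. The table deposited by the authors holds only rows they marked significant (highest q-value 0.0500). Its FPKM values, as deposited by the authors, are named so from the column layout. Its p-value and q-value columns come from the authors' test, as deposited. The log2 fold change deposited by the authors equals log2 of the FPKM ratio within 1.18e-05 in usable rows. Strand may not have been used in counting, so overlapping genes can share reads.

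Members were found by family name and grouped by role with Python 3.11.15 and pandas 2.3.3; no pseudocount or filter was applied. Genes were named by this rule: any member, with full values for the 3 largest ratios and the 2 highest means of each role, and the 3 largest ratios of each other list. Members, lists and roles were chosen with earlier results of these data known. With 1 library per genotype no test was run. Rows naming several symbols (59) were not used. The values of 1 member are counted but not reported here. Copies were aligned with Biopython 1.88 (local alignment) on GENCODE M21 transcripts, and the counting was tested on simulated data. Loci are given on mm9 with 1-based starts; promoters are on GRCm38.p6. Other scalings, limits and subsets were tried, and the closing section gives their effect.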

Additional observations from a re-analysis of the deposited data

How the results depend on the processing

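No paired analysis was possible because each genotype had 1 library. The counts of rows higher (11) and lower (29) stayed within 1.5 times under equal summed FPKM, under a median ratio of 0, at 5 FPKM or more in the higher library, with 1 row per symbol, and, settings chosen after seeing the data, without X-linked rows, without processed pseudogenes or with near-identical copies counted once (10 and 21); at a q-value below 0.01, 6 rows were higher and 22 lower. The number at least 2-fold higher (4) was 2 with a pseudocount of 1 FPKM, 9 at a 1.5-fold limit and 0 after setting the median of usable rows to 0; the number at least 2-fold lower (6) was 3, 23 and 27 under the same settings. The 2-fold counts therefore depend on the scaling and the pseudocount. Shares of all usable rows under these other settings are not given, so these counts cannot be set against the table. The median log2 ratio (-0.61) was -0.59 with the pseudocount, -1.16 with the median of usable rows set to 0, -0.27 with equal summed FPKM, -0.60 without X-linked rows and -0.58 without processed pseudogenes or with copies counted once. Among single rows, 2 of 40 changed sign, both with the median set to 0: Atxn7 (-0.095) and Hdac3 (-0.14). Both rescalings use only significant rows, which need not centre on 0, and whether either scale is the right one was not tested. The spread between embryos and the depth are unknown.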
